A study of Homo sapiens with 2 samples.

Results

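The genes described here are 59 members of the TGF-beta, BMP, activin and Nodal signalling pathway, chosen by name: ligands, receptors, SMAD proteins with their regulators, antagonists, latent-binding proteins and the ID target genes. Of these, 57 had at least 1 probe set annotated to a single gene, out of 19775 genes measured in that way, and they were covered by 155 probe sets. BMPR1A and LEFTY2 had no such probe set and were not analysed here. The cells were Huh7, an established human hepatocellular carcinoma line grown with serum. One sample carried a non-target control hairpin (control) and the other a hairpin against CD24, a glycosylated surface protein linked to liver tumour-initiating cells, each delivered stably by lentivirus. Total RNA of each was measured on 1 Affymetrix array. The sources used here do not say how many hairpin sequences or clones the CD24 shRNA cells represent.

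Ligands of this family are secreted dimers that bring together type II and type I serine/threonine kinase receptors. TGF-beta, activin and Nodal receptors phosphorylate SMAD2 and SMAD3, BMP receptors phosphorylate SMAD1, SMAD5 and SMAD9, and both groups then enter the nucleus with SMAD4. In the liver, TGF-beta restrains hepatocyte growth and drives scar formation, while BMP signalling switches on hepcidin, the hormone that limits iron uptake.

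Each deposited value is a log2 value centred on the mean of the 2 arrays. A probe set therefore has equal values of opposite sign, and the absolute level of a transcript is not in the table. Probe sets of the same gene were averaged, and every difference below is log2, CD24 shRNA minus control. With 1 array per group no test exists and no difference has a replicate check. The SD given is over the probe sets of a gene and does not hold the spread between cultures. As a yardstick, probe sets of the same gene scattered with a pooled SD of 0.27, from the 10523 genes with several. Scaling the arrays on their 18 hybridisation control probe sets would add 0.11 to every difference. CD24 itself was 2.58-fold lower, at -1.37 ± 0.38 (SD, 6 probe sets), and all 6 probe sets can match several transcripts. In these bulk samples, fewer cells making a transcript and less RNA per cell cannot be told apart.

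Although levels are missing, the digits of the table carry a trace of them, because single-precision numbers have finer binary steps at low values. A fine step was present in 55.8% of 208 probe sets for gene families that are silent in most tissues (odorant and taste receptors, defensins and keratin-associated proteins). It was present in 6.15% of 130 probe sets for ribosomal proteins and other abundant liver and housekeeping genes. It is thus an indirect and partial mark of low signal, read per probe set and not per array. The mark does not separate low signal on both arrays from low signal on either array alone. It can go with a large rise, as in COL3A1 probe sets with log2 differences (CD24 shRNA minus control) of 3.67 and 3.41. Probe sets with the fine step are called dim here, and others may be dim as well. Of the members' 155 probe sets 23.9% were dim, against 25.4% of all used probe sets. Every probe set was dim for 9 members: TGFB3, GDF9, GDF10, INHA, BMPR1B, ACVRL1, NOG, GREM1 and LTBP2.

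Among the members, the largest differences were a lower value of LEFTY1 and higher values of FSTL1, BMP2, TGFB2 and BMP4. The mean of FSTL1 rests on 1 of its 3 probe sets, and the median over them was 0.17. LEFTY1, a secreted inhibitor of Nodal, was 2.44-fold lower on 1 probe set, and it alone passed the 2-fold threshold. No member was 2-fold higher. On the whole array, 0.632% of genes reached 2-fold in the upward and 0.485% in the downward direction. At 1.5-fold, 4 members were higher and 2 lower, where 2.63% and 2.38% of all genes were. These counts changed with the processing, from 2 to 10 higher and from 1 to 3 lower. As deposited, members at least 1.5-fold apart in either direction were 10.5% of members, against 5.01% of all genes. The members had a median difference of 0.10, and 37 lay above 0, 19 below and 1 at 0, against a median of 0 and 49.4% above 0 for all genes. A difference larger than the 0.27 yardstick was seen in 23 members, or 40.4%, and in 24.0% of all genes. The yardstick describes single probe sets, whereas these differences are means over numbers of probe sets that vary by gene. The members were chosen with earlier results of these data known, so these shares are a description only.

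**Figure D1:**
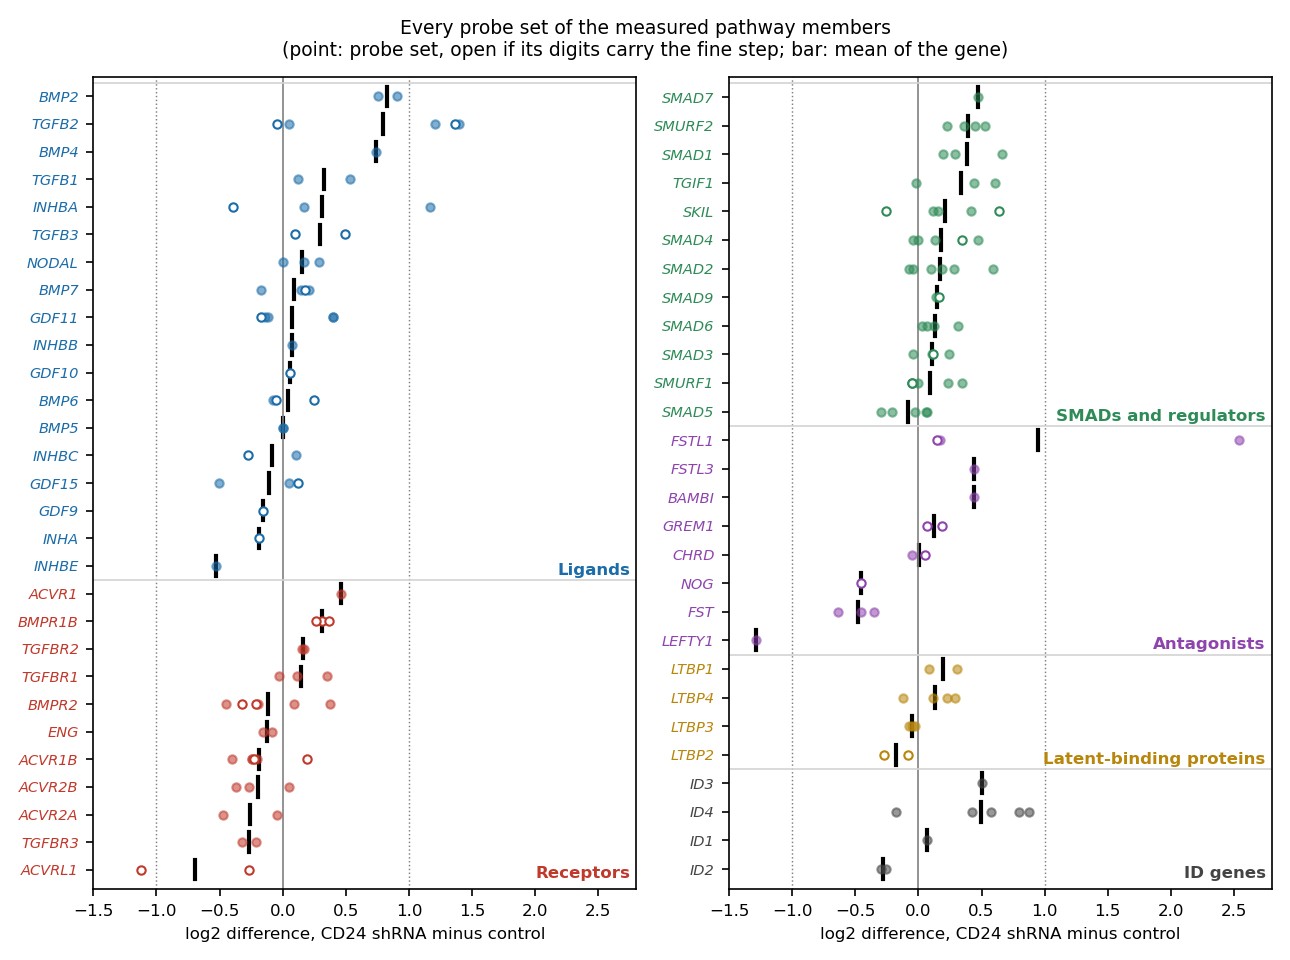
Each point is a probe set of a measured member, placed by its log2 difference between the arrays (CD24 shRNA minus control), open if dim, and each black bar is the mean of the gene. Dotted lines mark 2-fold. The bar of LEFTY1 lies left of the lower line at -1.28. Probe sets of FSTL1 (2.54), TGFB2 (1.39, 1.37 and 1.21) and INHBA (1.17) lie beyond the upper line. A probe set of ACVRL1 (-1.12) lies beyond the lower line. The means of these last genes, from FSTL1 to ACVRL1, lie between the lines.

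Promoters are shown for 3 of the 6 members past 1.5-fold, TGFB2, FSTL1 and BMP4, and the other members past it, LEFTY1, BMP2 and ACVRL1, are named only. Each run covers the 250 bases before the annotated start (RefSeq, GRCh38.p14), in the direction of transcription. Capitals mark CAGAC, the SMAD-binding box, and GGCGCC, a GC-rich SMAD motif of BMP target genes, on either strand. AATNCACA, the motif of the Nodal partner FOXH1, was also searched. The motifs do not overlap in these runs. For BMP4 the most upstream of 3 annotated starts is shown; of the others, 1 held none of the motifs and 1 held CAGAC alone, in reverse, at 46 bases.
TGFB2, chr1:218345086-218345335, plus strand: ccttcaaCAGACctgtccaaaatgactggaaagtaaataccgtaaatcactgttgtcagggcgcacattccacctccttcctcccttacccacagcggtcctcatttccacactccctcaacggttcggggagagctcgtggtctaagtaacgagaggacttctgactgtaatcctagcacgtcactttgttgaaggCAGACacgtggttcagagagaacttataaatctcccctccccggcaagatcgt
FSTL1, chr3:120450993-120451242, minus strand: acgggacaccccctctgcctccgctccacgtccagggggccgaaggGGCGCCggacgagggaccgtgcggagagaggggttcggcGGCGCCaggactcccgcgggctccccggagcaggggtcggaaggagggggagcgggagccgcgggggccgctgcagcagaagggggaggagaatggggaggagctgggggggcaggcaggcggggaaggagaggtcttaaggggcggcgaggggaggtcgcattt
BMP4, chr14:53955051-53955300, minus strand: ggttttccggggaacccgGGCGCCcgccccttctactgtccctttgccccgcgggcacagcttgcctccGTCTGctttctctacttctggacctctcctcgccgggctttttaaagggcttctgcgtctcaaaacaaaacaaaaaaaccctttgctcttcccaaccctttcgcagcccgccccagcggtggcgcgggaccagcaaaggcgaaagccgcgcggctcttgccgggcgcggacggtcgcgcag

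TGFB2 held CAGAC at 243 and 53 bases before its start. FSTL1 held no CAGAC but GGCGCC at 204 and 165 bases. The BMP4 run held GGCGCC at 232 and the reverse of CAGAC at 181 bases. CAGAC occurred in 38.0% of all 35116 promoters of the table, GGCGCC in 16.4% and the FOXH1 motif in 2.89%. Among 93 promoters of the 52 members in the table, the shares were 41.9%, 24.7% and 1.08%. A match describes letters only, and binding was not measured here.

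Of the 18 ligands, 12 lay above 0, 5 below and BMP5 at 0 on both arrays, with a median of 0.07. Among all genes 49.4% lay above 0. BMP2, a bone-forming BMP that is also made in liver, lay at -0.41 in the control and 0.41 in the CD24 shRNA array. Its probe sets agreed, at 0.91 and 0.75, so that it was 1.78-fold higher (0.83 ± 0.11, SD, 2 probe sets). BMP4, its close relative, lay at -0.37 and 0.37, or 1.67-fold higher, on 1 probe set that can match several transcripts. Both of these BMPs were thus higher by a similar amount in the CD24 shRNA array. The remaining BMPs among the 18 ligands had means near 0. BMP7, a kidney and bone morphogen, lay at 0.09 ± 0.18 (SD, 4 probe sets). BMP6, the main inducer of hepcidin, lay at 0.04 ± 0.18 (SD, 3 probe sets).

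All 3 TGF-beta isoforms lay above 0. TGFB2 was 1.73-fold higher on average, from -0.40 in the control to 0.40 in the CD24 shRNA array, but its 5 probe sets fell into separate sets. One set of 3 lay at 1.39, 1.37 and 1.21, and the other pair at 0.05 and -0.04 (0.79 ± 0.73, SD). The median over its probe sets was 1.21, past 2-fold. A dim probe set was present on each side of this split. TGFB1, the isoform released by platelets and most cells, lay at 0.33 ± 0.29 (SD, 2 probe sets), and TGFB3 at 0.30 ± 0.28 (SD, 2 dim probe sets).

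The activin and inhibin subunits went both ways. INHBA, the subunit of activin A, lay at 0.31 ± 0.79 (SD, 3 probe sets), with probe sets at 1.17, 0.17 and -0.40. The lowest of these was dim, and without it INHBA lay at 0.67. INHBE, a subunit made mainly by hepatocytes, was the lowest ligand at -0.53 (1 probe set), from 0.27 in the control to -0.27 in the CD24 shRNA array. INHBB lay at 0.07, INHBC, another liver-enriched subunit, at -0.08 and INHA, which turns activin into inhibin, at -0.18. Among the growth differentiation factors, GDF15, a stress-induced circulating factor, had a mean of -0.11 ± 0.34 (SD, 3 probe sets), of which 1 lay at -0.50 and the others at 0.12 and 0.05. GDF9, an oocyte factor, lay at -0.16, GDF10 at 0.06 and GDF11 at 0.07 ± 0.30 (SD, 5 probe sets). NODAL, the embryonic ligand that LEFTY1 restrains, lay at 0.15 ± 0.14 (SD, 3 probe sets, 1 of them tied between the arrays).

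Of the 11 measured receptors, 4 lay above 0 and 7 below, with a median of -0.12, where 47.5% of all genes lay below 0; the difference from the ligands was not tested. With the arrays scaled on their controls 7 were still below 0, BMPR2 and ENG only at -0.01. Under that scaling 71.4% of all genes lay above 0. ACVRL1, the endothelial type I receptor ALK1, was 1.62-fold lower (0.35 in the control and -0.35 in the CD24 shRNA array), with probe sets at -1.12 and -0.26, both dim. ENG, the endoglin co-receptor that works with ACVRL1, lay at -0.12 ± 0.05 (SD, 2 probe sets). The activin type II receptors ACVR2A and ACVR2B lay at -0.26 ± 0.30 (SD, 2 probe sets) and -0.20 ± 0.22 (SD, 3 probe sets). ACVR1B, the activin and Nodal type I receptor ALK4, was below 0 on 5 of 6 probe sets (-0.19 ± 0.20, SD). TGFBR3, the betaglycan co-receptor that presents TGF-beta 2 to its receptors, lay at -0.27 ± 0.08 (SD, 2 probe sets). Apart from ACVRL1, each of these differences was smaller than 1.5-fold.

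ACVR1, the BMP type I receptor ALK2, was the highest receptor at 0.46 (1 probe set), from -0.23 in the control to 0.23 in the CD24 shRNA array. BMPR1B lay at 0.31 ± 0.05 (SD) on 3 probe sets that agreed but were all dim. BMPR2, the BMP type II receptor, had 6 probe sets from -0.45 to 0.37 around a mean of -0.12. The TGF-beta receptors TGFBR1 and TGFBR2 lay at 0.14 ± 0.19 (SD, 3 probe sets) and 0.16 ± 0.01 (SD, 2 probe sets), both within the yardstick.

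**Figure D2:**
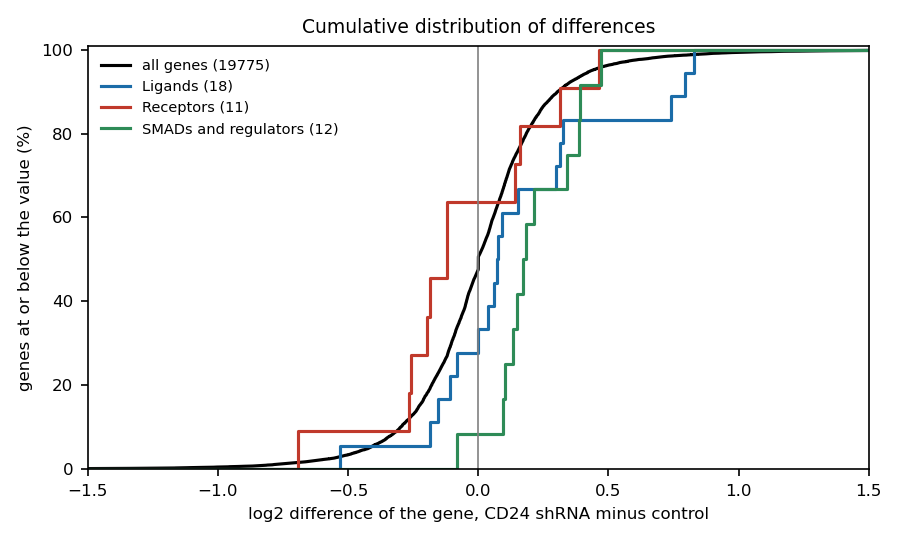
Cumulative share of genes (vertical axis, percent) at or below each log2 difference (horizontal axis, CD24 shRNA minus control) for all 19775 genes (black), 18 ligands (blue), 11 receptors (red) and 12 SMADs and regulators (green). The green line lies to the right of the black line at 0, with 1 of 12 genes below it, and the red line to the left, with 7 of 11 genes below it.

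SMADs and their regulators lay above 0 in 11 of 12 cases, by small amounts, where 49.4% of all genes lay above 0. The median was 0.18 and the highest 0.47, and none reached 1.5-fold. SMAD7, the inhibitory SMAD induced by TGF-beta and BMP alike, was the highest at 0.47 (1 probe set), from -0.23 in the control to 0.23 in the CD24 shRNA array. SMURF2, a ubiquitin ligase that SMAD7 brings to the receptors, was above 0 on all 4 probe sets (0.39 ± 0.13, SD), and SMAD1, a BMP-activated SMAD, on all 3 (0.39 ± 0.25, SD). TGIF1, a nuclear corepressor, lay at 0.34 ± 0.32 (SD, 3 probe sets), and SKIL, a corepressor that TGF-beta induces, at 0.21 ± 0.34 (SD, 5 probe sets). SMAD2 lay at 0.17 ± 0.25 (SD), with 4 probe sets above 0 and 2 below. SMAD3 lay at 0.10 ± 0.12 (SD, 4 probe sets) and SMAD4 at 0.18 ± 0.22 (SD, 5 probe sets). SMAD6 lay at 0.13 ± 0.13 (SD, 4 probe sets) and SMAD9 at 0.15 ± 0.02 (SD, 2 probe sets). SMURF1 lay at 0.10 ± 0.18 (SD), with 2 probe sets above 0, 2 below and 1 tied. SMAD5 was the only gene of this role with a mean below 0, at -0.08 ± 0.17 (SD, 5 probe sets). It lay at 0.03 with the arrays scaled on their controls. The count above 0 was 10 with the median over probe sets.

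Antagonists held the widest range of any role, from -1.28 to 0.95. LEFTY1 lay at 0.64 in the control and -0.64 in the CD24 shRNA array (difference -1.28, 1 probe set, without the fine step). The absence of that step does not show that its signal was high. A second probe set annotated to LEFTY1 and LEFTY2 together could not be given to either gene; it was dim and lay at 0.17. FST, follistatin, which traps activin, was below 0 on all 3 probe sets (-0.35, -0.46 and -0.64), or 1.40-fold lower (-0.48 ± 0.14, SD). NOG, the BMP trap noggin, lay at -0.46 on 1 dim probe set.

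Other antagonists were higher. FSTL1, a secreted follistatin-related glycoprotein, was 1.93-fold higher on average, from -0.48 in the control to 0.48 in the CD24 shRNA array. That mean rests on 1 probe set at 2.54, whereas the others lay at 0.17 and 0.14 (0.95 ± 1.37, SD, 3 probe sets), and the median over probe sets was 0.17. Without its dim probe set FSTL1 lay at 1.35. FSTL3, an activin trap like FST, lay at 0.44 and BAMBI, a membrane pseudoreceptor that TGF-beta and Wnt signals induce, also at 0.44, on 1 probe set each. FST and FSTL3 thus differed in direction. GREM1, a BMP trap, lay at 0.13 ± 0.08 (SD, 2 dim probe sets), and CHRD, chordin, had probe sets at -0.05 and 0.05.

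The latent-binding proteins, which store TGF-beta in the matrix, all lay within the yardstick. LTBP1 was at 0.19 ± 0.15 (SD, 2 probe sets), LTBP4 at 0.13 ± 0.18 (SD, 4 probe sets), LTBP3 at -0.05 ± 0.02 (SD, 3 probe sets) and LTBP2 at -0.18 ± 0.13 (SD, 2 dim probe sets). The ID genes, inhibitors of helix-loop-helix factors and direct BMP targets, were not alike. ID3 lay at 0.50 (1 probe set), from -0.25 in the control to 0.25 in the CD24 shRNA array. ID4 had nearly the same mean, 0.50 ± 0.42 (SD, 5 probe sets), with 4 probe sets between 0.42 and 0.87 and 1 at -0.18. ID1, the member most used as a readout of BMP signalling in liver, lay at 0.07 (1 probe set), and ID2 at -0.28 ± 0.03 (SD, 2 probe sets).

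Within the members, 20 of 43 with several probe sets, or 46.5%, had all of them on 1 side of 0, against 39.9% of such genes on the whole array. The 6 members past 1.5-fold differed in this: both BMP2 probe sets lay close together, those of TGFB2 and FSTL1 were split, both ACVRL1 probe sets were dim, and BMP4 and LEFTY1 had 1 each.

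Other genes of the pathway were taken from a further list of ligands, receptors, binding proteins and regulators. Of 52 listed, 47 were measured, with a median of 0.01, 24 above 0 and 23 below. In this list 1 was at least 2-fold higher and none 2-fold lower. The shares of all genes were 49.4% above 0, 47.5% below, 0.632% 2-fold higher and 0.485% 2-fold lower. FBN1, fibrillin-1, the microfibril protein to which latent TGF-beta complexes are anchored, was 4.18-fold higher, with its probe sets at 2.09, 2.36 and 1.75 (2.06 ± 0.31, SD, 3 probe sets). CRIM1, a membrane protein that binds BMPs, was 1.84-fold higher (0.88 ± 0.05, SD, 3 probe sets). HJV, hemojuvelin, a BMP co-receptor for hepcidin control in hepatocytes, was 1.65-fold lower, and DAND5, a Nodal and BMP antagonist, 1.64-fold lower, on 1 probe set each.

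Genes that respond to TGF-beta through SMAD3 in many cells were taken from a list of 32, of which 29 were measured. Their median was 0.22, with 19 above 0 and 10 below, where 49.4% of all genes lay above 0 and 47.5% below. At least 2-fold higher were 5, where 0.632% of all genes were. None were 2-fold lower, where 0.485% of all genes were. Several members of this list, TAGLN and COL3A1 among them, were already known as high in these arrays when the list was written, so its count is a description only. THBS1, thrombospondin 1, which can activate latent TGF-beta, was 3.02-fold higher (1.60 ± 1.01, SD, 7 probe sets, from 0.05 to 2.90). NOX4, an oxidase induced by TGF-beta, was 2.32-fold higher on probe sets at 2.11 (dim) and 0.32. CDKN2B, a cell cycle inhibitor, was 2.25-fold higher on probe sets at 1.94 and 0.39 (dim). TAGLN and COL3A1 had means of 2.67 and 2.35 with probe sets down to 0.05 and 0.11. Other genes of the list, picked after their values were seen, did not follow: CDKN1A, another such inhibitor, lay at -0.57, JUNB at -0.10, and PMEPA1, a feedback inhibitor of TGF-beta signalling, at -0.02 ± 0.17 (SD, 3 probe sets).

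Of 12 genes listed as responding to BMP through SMAD1 and SMAD5, all were measured. Of them 6 lay above and 6 below 0, and the median was -0.01, where 49.4% of all genes lay above 0. None reached 2-fold, where 0.632% of all genes were higher and 0.485% lower. TFR2, transferrin receptor 2, which takes part in hepcidin control, was 1.85-fold lower, with probe sets at -1.68, -0.83 and -0.16 (-0.89 ± 0.76, SD). HAMP, hepcidin, was 1.61-fold lower (0.34 in the control and -0.34 in the CD24 shRNA array, 1 probe set). GATA2, an endothelial and blood cell factor, lay at 0.50 ± 0.54 (SD, 3 probe sets) and HEY1, a Notch and BMP target, at 0.41 ± 0.12 (SD, 2 probe sets). ATOH8, another BMP target of hepatocytes, lay at 0.05 ± 0.13 (SD, 3 probe sets) and was picked after its value was seen.

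**Figure D3:**
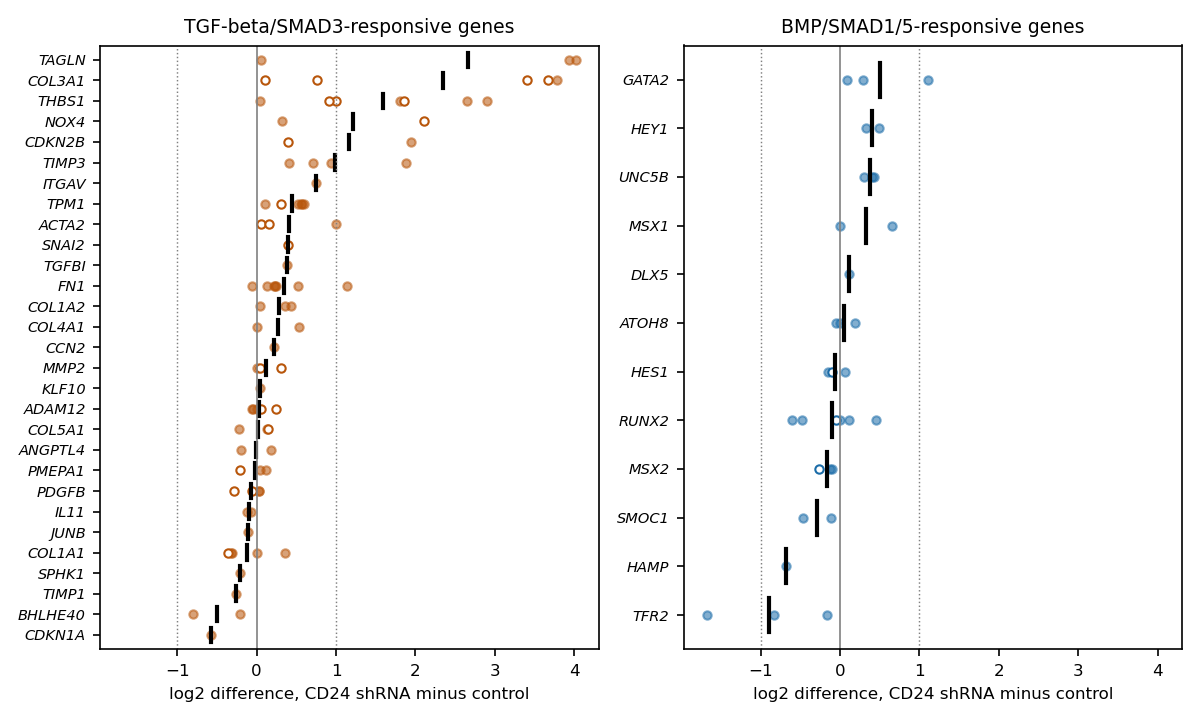
Each point is a probe set, placed by its log2 difference (horizontal axis, CD24 shRNA minus control), open if dim, and each black bar is the mean of the gene. Shown are 29 genes listed as responding to TGF-beta (left) and 12 listed as responding to BMP (right). Dotted lines mark 2-fold. TAGLN, COL3A1, THBS1, NOX4 and CDKN2B have means beyond the upper line on the left, and no mean lies beyond either line on the right.

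Markers of cell types were set beside these values, as differences only. Among all genes, 49.4% lay above 0 and 47.5% below, while 0.632% were 2-fold higher and 0.485% 2-fold lower. Of 10 hepatocyte and hepatoma markers 7 lay below 0, with a median of -0.10 and a range from -0.45 to 0.59. Of 10 stellate cell and fibroblast markers 7 lay above 0, with a median of 0.06, and 2, COL3A1 and LUM, were at least 2-fold higher. Both LUM probe sets, at 2.12 and 0.13, were dim, as were 4 of the 5 of COL3A1, which is also on the list of TGF-beta responsive genes. Endothelial markers, which bear on ACVRL1 and ENG, lay between -0.24 and 0.07 (5 genes). Of 4 leukocyte markers measured, 3 lay below 0: LYZ, lysozyme, 3.21-fold lower, CD14 at -0.37 and CD163 at -0.04. The other, PTPRC, lay at 0.17. Whether any of these markers is present in Huh7 cells cannot be read from differences, and their part in the results was not tested.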

How the data were processed

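Gene expression was measured in 2 Huh7 samples, 1 array each. The authors deposited log2 values from RMA, per the submitters' processing notes; RMA corrects background, normalises arrays by quantiles and summarises the probes of a probe set. The sources used here name neither the software nor the centring step. In the table the 2 values of every probe set sum to 0 within 1.00e-06. The log2 base follows from RMA; direction was checked on CD24. Of 54675 probe sets, 41091 name 1 gene in the platform annotation and were used, 1801 name several, 11721 none here, and 62 are controls. The reference gene table held the Entrez ID of 41037 and changed 0 symbols. Genes were averaged over probe sets (pandas 2.3.3). No test was possible; the number of arrays limits the precision. Members and lists were chosen with earlier results of these data known. Probe set values were given for members at least 1.5-fold apart and for most extremes of each role. The extremes SMAD5, LTBP1, LTBP2 and ID2 were given as mean and SD over probe sets. Those of INHBA, GDF15, FST, CHRD and LEFTY1's shared probe set were added after they were seen. Ranges over probe sets were also given for ID4 and BMPR2. Of each further list the 4 largest differences were named, CDKN2B, CDKN1A, JUNB, PMEPA1 and ATOH8 in addition. Calculations were tested on simulated data. Alternatives changed how probe sets were combined or left out, the scaling and the threshold.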

Additional observations from a re-analysis of the deposited data

How the results depend on the processing

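The median of the members stayed above 0 under every alternative run. It was 0.11 with the median over probe sets, 0.11 without the multi-transcript probe sets (names ending in _s_at or _x_at) and 0.14 without dim or tied ones. It was 0.24 with the probe set of largest difference and 0.21 with scaling on the hybridisation controls, which by construction lifts all genes by 0.11. Shares of all genes follow each count in parentheses. Members at least 2-fold higher numbered 0 as deposited (0.632%), 1 with the median over probe sets, TGFB2 (0.693%), and 3 with the largest probe set (1.53%). FSTL1 was the 1 such member without dim probe sets (0.887%) and with scaling (0.915%). Members at least 2-fold lower numbered 1 as deposited, LEFTY1 (0.485%), and ACVRL1 made 2 with the largest probe set (1.06%) and 2 without multi-transcript probe sets (0.509%). At a 3-fold threshold 0 were lower (0.0860%). At 1.5-fold, 4 members were higher (2.63%) and 2 lower (2.38%) as deposited. With the median over probe sets, which lost FSTL1, the counts became 3 (2.68%) and 2 (2.44%). Without multi-transcript probe sets 48 members had a value, and the counts were 2 (2.47%) and 2 (2.53%). That setting left TGFB2 at 0.58 and BMP4 with no value. They became 10 (5.70%) and 3 (5.55%) with the largest probe set. Without dim or tied probe sets 47 members had a value, and they were 5 (3.51%) and 1 (3.14%). There INHBA was added and ACVRL1 had no value. With scaling they were 6 (4.10%) and 1 (1.53%), with ID3 and ID4 added and ACVRL1 at -0.58. LEFTY1 has 1 probe set, so scaling alone could move it, to -1.17. Scaling moved 4 members from below to above 0: GDF15, INHBC, SMAD5 and LTBP3. Dimness could be read only in part, so low signal limits members not marked here too. It was not read per array, so leaving out dim probe sets can also drop a transcript that was low on 1 array only.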
